A study of Mus musculus with 8 samples.

Results

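Galectins are lectins, proteins that bind sugar chains ending in galactose. The 7 genes described here are 6 galectins (Lgals1, Lgals3, Lgals4, Lgals8, Lgals9 and Lgals12) and Lgals3bp, which codes for a secreted glycoprotein that galectin-3 binds. They are 7 of the 31053 genes in the count table, and all 7 passed the filter on low counts that left 8930 genes for testing. They were selected on these same mice, because Lgals3 had the smallest p-value of the family while Lgals1 did not rise. The genotype values of the 7 genes are therefore given as a description, with no test.

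Galectins are made without a signal peptide and reach the cell surface and the extracellular space by an unconventional route, where they crosslink glycoproteins. Inside the cell, galectin-3, galectin-8 and galectin-9 bind the glycans that are exposed when a lysosome is damaged. In fat, galectin-3 is best known as a product of macrophages that take up lipid, and galectin-12 as a protein of adipocytes that sits on lipid droplets and restrains lipolysis.

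The study profiled brown adipose tissue (BAT) by bulk RNA-seq in 4 WT mice and 4 Ucp1Δ/Δ mice, named ATGLKO in the sample titles. All were C57BL6/J and, per the methods, male, and the labels give an age of 10 weeks while the figure legend gives 8 weeks. Ucp1Δ/Δ mice carry Pnpla2 fl/fl alleles, the gene of the adipose triglyceride lipase ATGL, and a Cre recombinase under the Ucp1 promoter. Pnpla2 is thus removed from thermogenic adipocytes and kept in all other cells of the tissue, and whether the WT mice carried floxed alleles or Cre was not given in the sources used here.

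Pnpla2 read 2837, 2702, 2961 and 3152 CPM (counts scaled to the size of each library after TMM normalization) in WT mice 1 to 4, and 514, 448, 403 and 531 CPM in Ucp1Δ/Δ mice 1 to 4. No library went against its genotype label. Total counts were 2017697 to 3115956 per mouse, so that 3 counts, the limit that a count of 0 allows, are worth 0.963 to 1.49 CPM. The labels name both BAT and its stromal vascular fraction, but the summed level of 11 adipocyte markers was 14578 to 24145 CPM in WT mice and 10898 to 16328 CPM in Ucp1Δ/Δ mice, so adipocyte transcripts were abundant in every library. Summed skeletal muscle markers ranged from 20.04 to 1466 CPM among WT mice and from 68.1 to 2065 CPM among Ucp1Δ/Δ mice, so muscle RNA varied within both genotypes. Of the 8930 genes, 21.0% had an adjusted p under 0.05 by the edgeR quasi-likelihood test, adjusted by the Benjamini-Hochberg method (1191 higher and 681 lower in Ucp1Δ/Δ mice). With total counts as the only scaling the split was 1478 higher and 404 lower.

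Promoters of 3 members are shown because these genes were the members that separated the genotypes. Each is the 250 bases before the RefSeq start of the gene (GRCm38.p6), written 5′ to 3′ on the strand of the gene, with capitals marking matches to a motif. The gene positions given below come from another annotation, GENCODE, whose starts differ. The Lgals3 window lies inside its GENCODE gene, and the windows of Lgals9 and Lgals3bp overlap the 5′ ends of theirs. They may thus miss the promoter of the GENCODE start.
Lgals3, chr14:47373610-47373859, plus strand: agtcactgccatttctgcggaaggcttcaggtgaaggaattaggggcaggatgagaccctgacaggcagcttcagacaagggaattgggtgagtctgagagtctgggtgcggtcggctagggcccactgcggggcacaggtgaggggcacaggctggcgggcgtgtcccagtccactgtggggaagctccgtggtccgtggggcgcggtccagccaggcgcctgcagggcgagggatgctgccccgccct
Lgals9, chr11:78984925-78985174, minus strand: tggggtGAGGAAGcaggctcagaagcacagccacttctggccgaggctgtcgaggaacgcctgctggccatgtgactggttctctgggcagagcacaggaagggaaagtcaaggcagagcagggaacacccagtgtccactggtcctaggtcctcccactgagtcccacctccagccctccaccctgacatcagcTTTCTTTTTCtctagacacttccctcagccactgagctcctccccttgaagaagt
Lgals3bp, chr11:118401960-118402209, minus strand: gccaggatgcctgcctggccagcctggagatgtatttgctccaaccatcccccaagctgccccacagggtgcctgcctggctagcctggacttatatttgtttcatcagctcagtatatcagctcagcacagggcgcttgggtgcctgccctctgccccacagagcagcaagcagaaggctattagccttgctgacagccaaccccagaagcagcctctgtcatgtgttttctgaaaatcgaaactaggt

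Motifs were searched on both strands. They were the AP-1 motif TGANTCA, the E-box CACGTG that TFEB and TFE3 bind, the macrophage factor PU.1's GAGGAAG, the interferon element (GAAA, any 2 bases, GAAA) and the TATA box TATAAA. The Lgals9 promoter held GAGGAAG from position -244 and, on the other strand, the interferon element as TTTCTTTTTC from position -55, counted from the RefSeq start. These motifs occur in 10.6% and 2.98% of 32851 mouse promoters of the same length, and the matches do not overlap. None of the 5 motifs was found in the windows of Lgals3 or Lgals3bp, which says only that these letters are not there. For comparison, AP-1 letters occur in 6.75%, E-box letters in 6.02% and TATA letters in 12.4% of promoters. The Lgals3 window was 66.0% G and C, against a median of 52.4%. Lgals4 held GAGGAAG on the other strand and Lgals8 held none, and Lgals1 and Lgals12 had no entry in the RefSeq table.

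Lgals3 (ENSMUSG00000050335, chr14:47367751-47386160, plus strand, protein coding) codes for galectin-3, the member with a long flexible tail that lets it form multimers. It was counted 11, 21, 15 and 15 times in WT mice 1 to 4 and 812, 1659, 494 and 778 times in Ucp1Δ/Δ mice 1 to 4. In CPM these are 5.61, 9.41, 5.01 and 7.60 against 287, 516, 206 and 334. The lowest Ucp1Δ/Δ mouse was far above the highest WT mouse, and Ucp1Δ/Δ mouse 2 was the highest of all. The mean went from 6.91 ± 2.0 to 336 ± 131 CPM (SD, n = 4 each), a ratio of 48.6 and a fitted log2 fold change (log2FC) of 5.61 (SE 0.32), which ranked 10 among the 8930 genes from the top. Leaving out any 1 mouse kept the log2FC between 5.33 and 5.80.

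**Figure D1:**
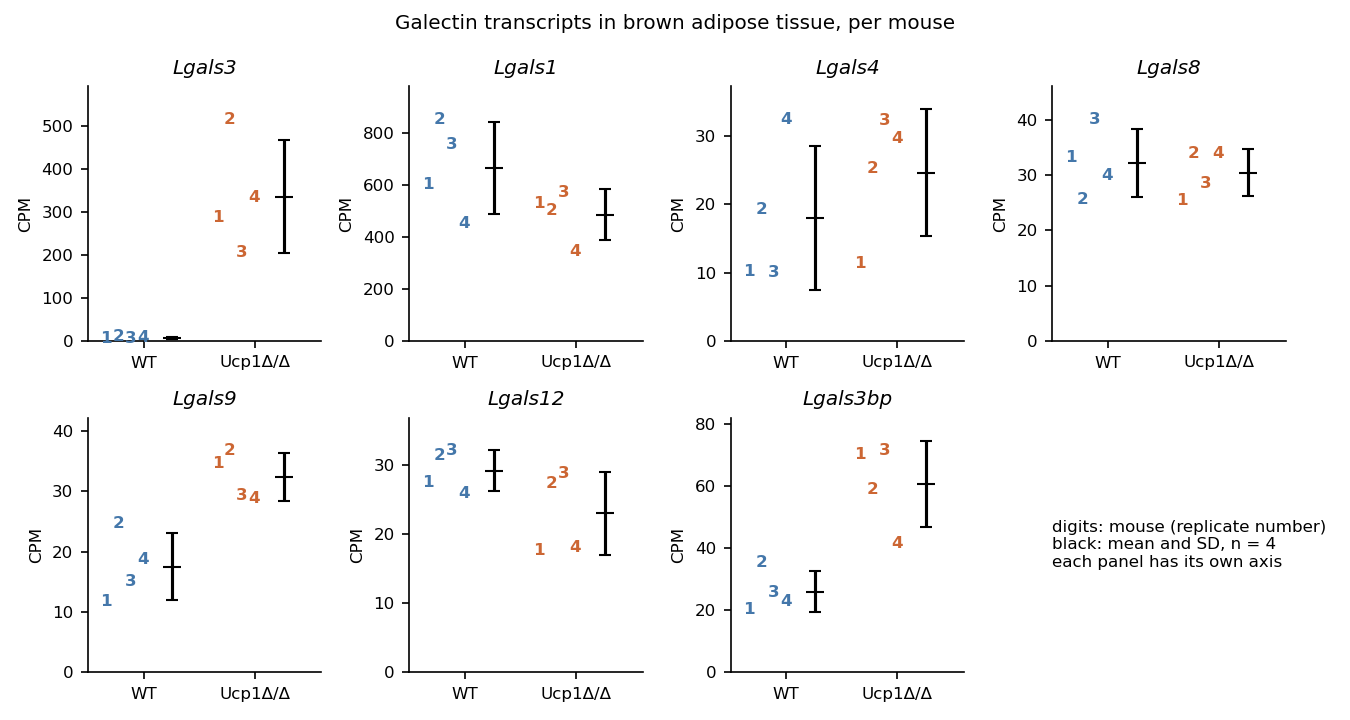
Level of each of the 7 genes in CPM (vertical axis, linear, its own scale in each panel) for the 4 WT and 4 Ucp1Δ/Δ mice. Digits are mice and the black mark is the mean ± SD (n = 4). The genotypes do not overlap for Lgals3, Lgals9 and Lgals3bp and overlap for the other members.

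Lgals9 (ENSMUSG00000001123, chr11:78962974-78984946, minus strand, protein coding) codes for galectin-9, a tandem-repeat galectin with a pair of sugar-binding domains on 1 chain and an interferon-inducible gene in many cell types. Its level was 11.7, 24.6, 15.03 and 18.7 CPM in WT mice 1 to 4 and 34.7, 36.7, 29.3 and 28.8 CPM in Ucp1Δ/Δ mice 1 to 4. All Ucp1Δ/Δ mice lay above all WT mice, and WT mouse 2 came closest to the Ucp1Δ/Δ range. The means were 17.5 ± 5.54 and 32.3 ± 3.96 CPM, a ratio of 1.84 and a log2FC of 0.89 (SE 0.23).

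Lgals3bp (ENSMUSG00000033880, chr11:118392751-118402092, minus strand, protein coding) is no lectin itself but a heavily glycosylated secreted ligand of galectins. Its level was 20.4, 35.4, 25.7 and 22.8 CPM in WT mice 1 to 4 and 70.4, 59.1, 71.5 and 41.6 CPM in Ucp1Δ/Δ mice 1 to 4. The genotypes did not overlap, and Ucp1Δ/Δ mouse 4 was closest to the WT range. The means were 26.1 ± 6.58 and 60.7 ± 13.9 CPM, a ratio of 2.33 and a log2FC of 1.21 (SE 0.22).

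Lgals1 (ENSMUSG00000068220, chr15:78926725-78930465, plus strand, protein coding) codes for galectin-1, the prototype galectin that acts as a dimer and is made by fibroblasts, vessel walls and many other cells. Its level was 600.2, 852, 755 and 450.3 CPM in WT mice 1 to 4 and 526, 500.3, 572 and 344 CPM in Ucp1Δ/Δ mice 1 to 4. The ranges overlapped, with mouse 4 the lowest of both genotypes. The means were 664 ± 176 and 486 ± 98.7 CPM and the log2FC was -0.45 (SE 0.21), opposite in sign to that of Lgals3. Leaving out 1 mouse moved it between -0.60, without WT mouse 4, and -0.31.

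Lgals12 (ENSMUSG00000024972, chr19:7596660-7607193, minus strand, protein coding) is the adipocyte galectin. Its level was 27.5, 31.4, 32.1 and 25.8 CPM in WT mice 1 to 4 and 17.7, 27.4, 28.8 and 18.0 CPM in Ucp1Δ/Δ mice 1 to 4. Ucp1Δ/Δ mice 1 and 4 lay below every WT mouse and the other two lay within the WT range. The log2FC was -0.35 (SE 0.21), and it stayed between -0.45 and -0.23 with 1 mouse left out.

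Lgals8 (ENSMUSG00000057554, chr13:12439415-12464944, minus strand, protein coding) codes for galectin-8, the tandem-repeat galectin that marks damaged vesicles for autophagy. Its level was 33.1, 25.5, 40.1 and 29.9 CPM in WT mice 1 to 4 and 25.5, 33.9, 28.4 and 33.9 CPM in Ucp1Δ/Δ mice 1 to 4. The ranges coincided, and the log2FC of -0.09 (SE 0.19) took either sign, from -0.18 to 0.05, when 1 mouse was left out. Exons of Lgals8 overlap Heatr1 on the opposite strand and 2.53% of the 75-base windows of its transcripts also occur in other transcripts, so some of its counts are uncertain. No exact 75-base window of the other 6 members occurs in another annotated transcript.

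Lgals4 (ENSMUSG00000053964, chr7:28833854-28841708, plus strand, protein coding) codes for galectin-4, a tandem-repeat galectin known mainly from the gut lining. Its level was 10.2, 19.3, 10.0 and 32.4 CPM in WT mice 1 to 4 and 11.3, 25.2, 32.2 and 29.6 CPM in Ucp1Δ/Δ mice 1 to 4. Both genotypes spanned about the same range. The log2FC was 0.46 (SE 0.37), with 0.25 to 0.90 when 1 mouse was left out, the widest range of the 7. Its WT coefficient of variation, 58.7%, was the highest among the members in either genotype, while the lowest was the 10.3% of Lgals12 in WT mice. Among Ucp1Δ/Δ mice the coefficient ran from 12.2% for Lgals9 to 39.1% for Lgals3. The epithelial markers Epcam, Krt8 and Cldn3 were at 0 in all 8 mice, and the 7 epithelial markers summed to at most 1.002 CPM in WT mice and 1.77 CPM in Ucp1Δ/Δ mice.

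**Figure D2:**
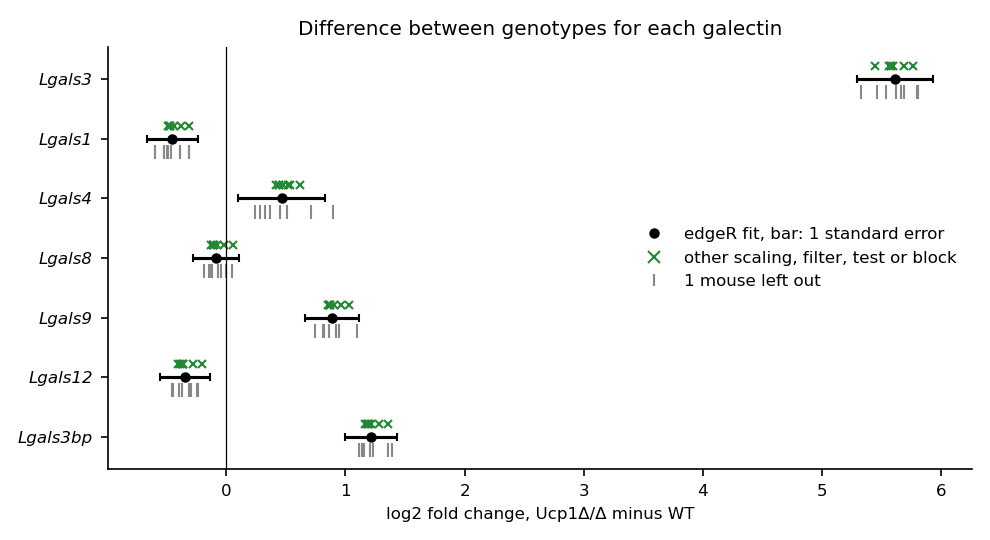
Difference between genotypes for each gene as log2FC (horizontal axis, Ucp1Δ/Δ minus WT). The black point and bar are the edgeR value ± 1 SE, green crosses are 7 other scalings, filters and tests, and grey ticks leave out 1 mouse each. Lgals3 stands at 5.61, Lgals3bp at 1.21 and Lgals9 at 0.89, while the values of Lgals8 fall on both sides of 0.

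Thus 3 of the 7 genes were called higher at an adjusted p under 0.05 and 0 lower, where 13.3% of all genes tested were higher and 7.63% lower. The same 3 did not overlap between genotypes, as was so for 23.7% of all genes. Since the genes were selected on this comparison, nothing is read from these counts. The other family genes on the list add little. Lgals2 had 0 counts in all mice, which allows up to 1.49 CPM in the shallowest library, Lgals7 had 2 counts in all, Grifin had 1, and Lgals6 had no row. Lgalsl, a galectin-related protein that does not bind lactose, was at 14.1 ± 3.0 CPM in WT and 10.7 ± 2.67 CPM in Ucp1Δ/Δ mice, with a log2FC of -0.39 (SE 0.26, adjusted p = 0.33 by the edgeR quasi-likelihood test, adjusted by the Benjamini-Hochberg method).

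The makeup of the galectin reads shifted with Lgals3. Of the counts over the 7 genes, Lgals3 took 0.791%, 0.943%, 0.567% and 1.29% in WT mice 1 to 4 and 29.5%, 43.1%, 21.3% and 40.2% in Ucp1Δ/Δ mice 1 to 4. Lgals1 took 76.6% to 85.5% in WT and 41.5% to 59.0% in Ucp1Δ/Δ mice. In Ucp1Δ/Δ mouse 2 more galectin reads came from Lgals3 than from Lgals1. These are shares of reads, not of molecules or protein.

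Markers of other cell types moved with these values. The summed level of 12 macrophage markers was 154 to 184 CPM in WT and 1029 to 1646 CPM in Ucp1Δ/Δ mice, and 9 of the 10 markers tested were higher. Ucp1Δ/Δ mouse 2 was the highest for these markers, as it was for Lgals3 and Lgals9, but for Lgals3bp it was below Ucp1Δ/Δ mice 1 and 3. Set against them, Lgals3 had 3.11, 5.11, 3.25 and 4.48 counts per 100 macrophage marker counts in WT mice 1 to 4 and 21.9, 31.4, 20.1 and 32.2 in Ucp1Δ/Δ mice 1 to 4. These ratios, 3.99 ± 0.97 and 26.4 ± 6.28 on average, are a description, since Lgals3 was selected for its difference between the same mice. The markers themselves differed in size of change, with a ratio of means of 24.8 for Cd68 and 3.89 for the mannose receptor Mrc1, so a ratio to their sum depends on the markers chosen. For Lgals9 the order turned round, from 6.50 to 13.4 counts per 100 marker counts in WT down to 2.23 to 2.84 in Ucp1Δ/Δ mice, and likewise for Lgals3bp, from 11.3 to 19.2 down to 3.59 to 6.95. In bulk tissue, more or fewer cells of a type and more or less RNA per cell cannot be told apart, and the part of macrophage number in the 3 genes was not tested.

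**Figure D3:**
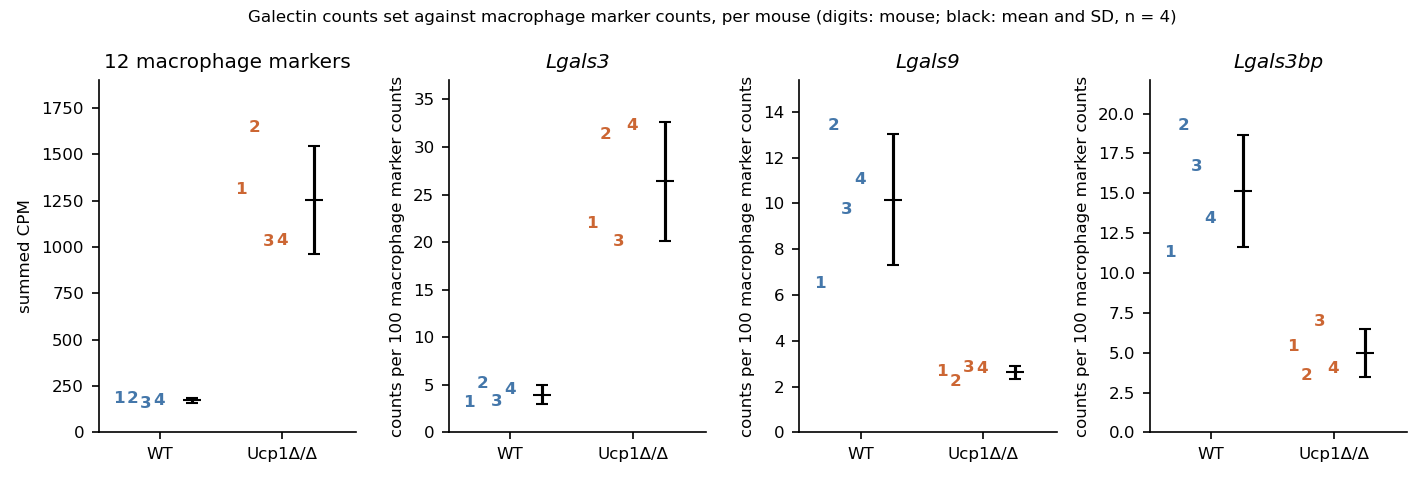
Summed CPM of 12 macrophage markers (first panel) and counts of Lgals3, Lgals9 and Lgals3bp per 100 macrophage marker counts (other panels), per mouse, with mean ± SD (n = 4). Digits are mice. Per marker count, Lgals3 is at 20.1 to 32.2 in Ucp1Δ/Δ and 3.11 to 5.11 in WT mice, while Lgals9 and Lgals3bp are lower in Ucp1Δ/Δ mice.

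The lipid-associated macrophage list holds both lipid-handling genes that adipocytes also use and macrophage genes, and its summed level overlapped, at 6554 to 8818 CPM in WT and 5775 to 7763 CPM in Ucp1Δ/Δ mice. Of its 12 genes tested, 6 were higher, 0 were lower and 3 had a negative log2FC. Gpnmb, a lysosomal glycoprotein of phagocytes, was among the higher genes, at 3.40 CPM in WT and 145 CPM in Ucp1Δ/Δ mice on average. Cd36, among the markers by which the study sorted these macrophages, averaged 534 CPM in both genotypes. The fibroblast and progenitor markers summed to 393 to 580 CPM in WT and 1158 to 2273 CPM in Ucp1Δ/Δ mice, with 8 of 9 tested genes higher. Lgals1 did not follow them, with 77.6 to 192 counts per 100 of these marker counts in WT and 20.4 to 49.4 in Ucp1Δ/Δ mice. Against the endothelial markers, of which 0 of 7 were called, Lgals1 stood at 153 to 349 and 106 to 188 counts per 100, and the ranges overlapped. Lgals12 per 100 adipocyte marker counts was 0.130 to 0.177 in WT and 0.108 to 0.251 in Ucp1Δ/Δ mice, so its genotypes overlapped there too. Lymphoid markers summed to at most 9.55 CPM and neutrophil markers to at most 7.62 CPM in any mouse, with Cd79a and Ly6g at 0 throughout. Mural and smooth muscle markers were at 178 to 283 CPM in WT and 287 to 317 CPM in Ucp1Δ/Δ mice. The part of these cell types in the galectin values was not tested.

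The genes most like Lgals3 over the 8 mice were found by the root mean square difference of log2 CPM after subtracting the WT mean. They were Mmp12 (0.22), a macrophage elastase, Atp6v0d2 (0.42), a subunit of the proton pump of lysosomes and osteoclasts, Gpnmb (0.45), Trem2 (0.51), a lipid-sensing receptor of macrophages, and Cd68 (0.81), a lysosomal protein of phagocytes. Mmp12, Atp6v0d2 and Trem2 had WT means of only 0.24, 0.13 and 0.11 CPM, so their likeness depends on the prior count of 2. Cd68 went from 2.81 to 69.5 CPM on average. The root mean square difference covers mice of both genotypes. It therefore mainly finds genes with a similar shift between genotypes, on which the members were selected. These neighbours are a description, and the cells of origin were not tested. The genes most like Lgals3bp had log2FC values of 1.01 to 1.32, beside its own 1.21. They were Igfbp7 (0.17), a secreted protein of vessels and stroma, Jdp2 (0.19), an AP-1 family repressor, Cavin1 (0.20), a coat protein of caveolae, Plvap (0.20), an endothelial protein of fenestrae, and Lmo2 (0.21), a transcriptional partner of blood and endothelial cells. Igfbp7 was at 32.6 CPM in WT and 76.8 CPM in Ucp1Δ/Δ mice on average.

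Galectins act through the glycoproteins they bind, among them leukocyte receptors, matrix proteins and lysosomal membrane proteins. Of 26 such genes on the list, 22 were tested, 13 rose and 0 fell, or 59.1% against 13.3% of all genes tested that were higher, and the median log2FC was 0.73 against -0.01. The leukocyte phosphatase Ptprc (CD45), a ligand of galectin-1, galectin-3 and galectin-9, rose from 6.10 ± 2.08 to 47.6 ± 2.47 CPM (log2FC 3.0, SE 0.24, adjusted p = 7.62e-07 by the edgeR quasi-likelihood test, adjusted by the Benjamini-Hochberg method, as for all adjusted p-values here). The hyaluronan receptor Cd44 rose from 1.95 ± 0.67 to 23.0 ± 7.08 CPM (log2FC 3.59, SE 0.34, adjusted p = 3.45e-06) and fibronectin, Fn1, from 3.70 ± 1.20 to 19.5 ± 6.69 CPM (log2FC 2.39, SE 0.32, adjusted p = 7.18e-05). Trem2 had 1 count over the 4 WT mice and 28 to 130 counts in each Ucp1Δ/Δ mouse (adjusted p = 2.28e-06). Trem2, Pdgfrb and Kdr are also on the macrophage, fibroblast and endothelial marker lists above, and Kdr was not called. Ptprc and Itgam are leukocyte genes, so the list is not independent of cell type.

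Other ligands moved less. Mertk, a receptor for dying cells that galectin-3 can engage, was at 14.3 ± 7.09 and 26.2 ± 7.62 CPM (log2FC 0.90, SE 0.32, adjusted p = 0.0549). It passed the threshold in 7 of 15 alternative fits, with adjusted p-values from 0.0054 to 0.179, and at 0.0163 with a replicate block. The lysosomal membrane proteins Lamp1 (459 and 515 CPM, log2FC 0.17, SE 0.17, adjusted p = 0.542) and Lamp2 (111 and 114 CPM, log2FC 0.04, SE 0.18, adjusted p = 0.913) did not pass the test. Without Ucp1Δ/Δ mouse 2 the count of ligands that rose was 7. Itga5, Havcr2, Spn and Lag3 were below the filter, and Havcr2, the galectin-9 receptor TIM-3, had 0 counts in WT and 7 counts over the Ucp1Δ/Δ mice.

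The sugar chains that galectins bind are built by glycosyltransferases of the Golgi. Of 30 such genes, 11 were below the filter and 19 were tested, 4 rose and 1 fell, or 26.3% called against 21.0% of all genes tested, and the median log2FC was 0.04. The galactosyltransferase B4galt6 rose from 1.87 ± 0.67 to 10.2 ± 1.92 CPM (log2FC 2.44, SE 0.35, adjusted p = 0.00012). The polylactosamine enzyme B3gnt8 rose from 2.13 ± 0.88 to 9.16 ± 2.06 CPM (log2FC 2.05, SE 0.36, adjusted p = 0.00067). In WT mice 1 to 4, B4galt6 had only 2, 5, 5 and 5 counts and B3gnt8 2, 7, 7 and 4. These lie near the limit of 3 counts, so the size of both changes is uncertain. Gcnt2, which branches polylactosamine, rose with a log2FC of 1.13 (SE 0.29, adjusted p = 0.0111), and C1galt1, which makes the core of O-glycans, with a log2FC of 0.92 (SE 0.27, adjusted p = 0.0238). St3gal6, which caps galactose with sialic acid, fell from 57.1 ± 11.8 to 33.1 ± 8.29 CPM (log2FC -0.79, SE 0.22, adjusted p = 0.0162), though the genotypes overlapped and the call was lost without WT mouse 3 or without Ucp1Δ/Δ mouse 3.

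Genes of the response to damaged lysosomes, in which galectin-3, galectin-8 and galectin-9 take part, numbered 20 on the list. All were tested, 0 rose and 1 fell, or 5% against 21.0% of all genes called in either direction, with a median log2FC of -0.02. The gene that fell was Ubqln1, a shuttle for ubiquitylated proteins, from 110 ± 9.44 to 61.5 ± 3.27 CPM (log2FC -0.83, SE 0.15, adjusted p = 0.0011).

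Genes that control lipolysis in adipocytes, the process that galectin-12 restrains, numbered 18 on the list. All were tested, 0 rose and 6 fell, or 33.3% against 7.63% of all genes tested that were lower, with a median log2FC of -0.43. The list includes the deleted gene, Pnpla2 (log2FC -2.62, SE 0.17, adjusted p = 1.97e-07). The phosphodiesterase Pde3b, which carries the antilipolytic signal of insulin, fell from 456 ± 75.1 to 229 ± 27.3 CPM (log2FC -0.99, SE 0.17, adjusted p = 0.00066). A pair of protein kinase A genes fell, the regulatory subunit Prkar2b from 917 ± 183 to 437 ± 89.7 CPM (log2FC -1.07, SE 0.19, adjusted p = 0.00093) and the catalytic subunit Prkaca from 176 ± 28.2 to 98.8 ± 19.8 CPM (log2FC -0.83, SE 0.18, adjusted p = 0.0043). Of the 11 adipocyte markers 1 was higher and 5 were lower, while their summed level, given above, overlapped between genotypes, and their part in this list was not tested. Plin1, Cidec and Lipe are on both lists, and Plin1 and Cidec were called lower, so the lists are not independent.

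Lgals9 and Lgals3bp are known as interferon-inducible genes. The interferon element was found in the Lgals9 window shown above, as in 2.98% of promoters, and not in the Lgals3bp window. Of 25 other interferon-induced genes, 9 were below the filter, Mx2 had no row and 15 were tested, of which 4 rose and 0 fell, or 26.7% against 13.3%, with a median log2FC of 0.68. Ifitm3, an antiviral membrane protein, rose from 61.3 ± 3.10 to 152 ± 19.2 CPM (log2FC 1.31, SE 0.16, adjusted p = 3.95e-05) and the ADP-ribosyltransferase Parp14 from 8.41 ± 5.05 to 27.7 ± 5.66 CPM (log2FC 1.75, SE 0.34, adjusted p = 0.0017). Rtp4 rose with a log2FC of 1.33 (SE 0.30, adjusted p = 0.0044), and the transcription factor Irf7 with a log2FC of 1.12 (SE 0.35, adjusted p = 0.0341). Whether interferon had a part in the values of Lgals9 and Lgals3bp was not tested.

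**Figure D4:**
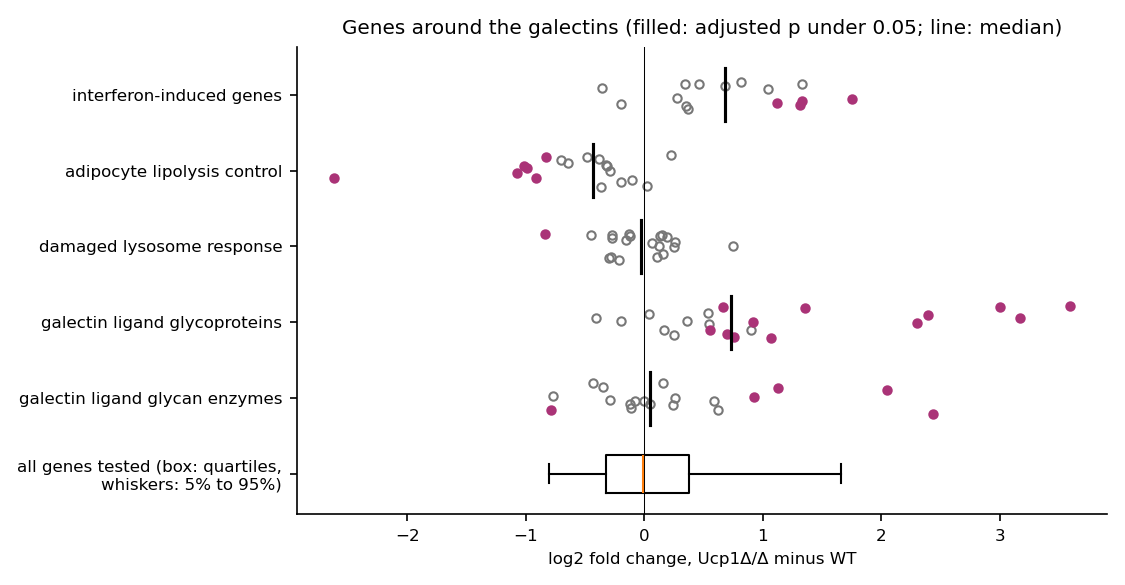
Log2FC (horizontal axis, Ucp1Δ/Δ minus WT) of each tested gene in 5 lists, beside the spread of all 8930 genes (box of quartiles, whiskers from 5% to 95%). Filled points passed an adjusted p under 0.05, black lines are list medians, and Trem2 is left out because its WT total was 1 count. Ligand glycoproteins have the highest median, 0.73, and lipolysis genes the lowest, -0.43.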

How the data were processed

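BAT RNA of 8 mice was sequenced single-end for 75 cycles. Per the methods, the authors used bbduk for trimming, STAR for alignment to mm10 and HTseq-counts for counts per gene, whereas the submitters' processing notes list Trimmomatic, HISAT2 and DESeq2. The deposited counts were whole numbers without normalization. The authors also deposited log2 values, the log2 of the count over 1 factor per mouse, plus 1, which served 1 alternative. Annotation release and strand setting were not given in the sources used here, so genes overlapping on opposite strands could share reads.

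Symbols and positions came from GENCODE M21 (30934 of 31053 identifiers) and promoters from RefSeq (5 of the 7 genes). In R 4.3.3, genes were filtered with filterByExpr, scaled by TMM and tested for genotype with the quasi-likelihood test of edgeR 4.0.16, with Benjamini-Hochberg adjustment over 8930 genes and a threshold of 0.05. Log2 CPM used a prior count of 2. The script was tested on simulated data. The galectins and the gene lists were chosen with earlier results of these data known. Beside the galectins and Pnpla2, the text names up to 4 genes of each list in each direction by smallest adjusted p, Trem2, Mertk, Lamp1 and Lamp2 in any case, the 5 genes most like each member with an absolute log2FC of at least 1, and cell type markers at 0 in all mice. Itgam, Itga5, Havcr2, Spn, Lag3, Mrc1, Tfeb, Pdgfrb, Kdr, Plin1, Cidec, Lipe and Cd36 were named after their values were seen. Alternatives used DESeq2 1.42.0 and limma 3.58.1.

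Replicates of a genotype differed beyond counting noise (chi-square per degree of freedom 4.69 to 23.2). Nothing says that same-numbered mice share a litter or day, so they were not paired.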

Additional observations from a re-analysis of the deposited data

Results flagged for a closer look

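In each genotype, the gap between the highest or lowest mouse and its nearest neighbour was compared with the whole range of the 4 mice, over 60 groups of values. Chance flags about 1 in 20 such groups, or 3 here, and 6 values stood apart. None is a member of the 7 genes.

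B4galt6 in Ucp1Δ/Δ mouse 2 lay above the others (log2 CPM 3.79 against 3.30 to 3.37, a gap of 0.845 of the range), and so did Rtp4 in the same mouse (3.69 against 3.16 to 3.23, 0.868). Prkaca was highest in Ucp1Δ/Δ mouse 3 (7.01 against 6.44 to 6.51, 0.887). Gcnt2 was lowest in Ucp1Δ/Δ mouse 4 (3.09 against 3.74 to 3.80, 0.917). Grifin and Trem2 each had 1 count in WT mouse 2 and 0 in the other WT mice, so that the gap was the whole range (1) and rests on a single read.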

How the results depend on the processing

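For the 7 members, no alternative scaling, filter or test moved the log2FC by more than the spread between mice. The same held with 1 mouse left out, but 1 mouse of 4 can hardly move a mean that far, so nothing is read from it. In both kinds of fit only Lgals8 changed sign. Requiring at least 10 counts in every mouse, which removes genes near 0 in 1 genotype, left 1195 genes differing (746 higher, 449 lower), 2 glycan enzymes (1 higher), 7 ligand glycoproteins (7 higher) and 2 interferon-induced genes (2 higher). With total counts only, under which the all-gene median shifted from -0.01 to 0.13 on the log2 scale, 404 genes were lower, and 2 damaged-lysosome genes were called, of which 1 was higher (Tfeb). With 1 mouse left out, genes lower ranged from 399 (without Ucp1Δ/Δ mouse 2) to 801, with 452 without Ucp1Δ/Δ mouse 4. Glycan enzymes ranged from 3 (without WT mouse 3) to 5 and those lower from 0 to 1. Ligand glycoproteins, all higher, ranged from 7 (without Ucp1Δ/Δ mouse 2) to 12. Lamp2 took either sign, at -0.034 without WT mouse 4, -0.048 without Ucp1Δ/Δ mouse 2 and up to 0.18. Of 321 other values over 22 named genes, 298 kept direction and call, 14 lost the call and 7, all of Mertk, gained it. The causes were not tested.

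The replicate numbers did not pair the mice (correlations -0.09, -0.20, 0.30 and 0.24 for numbers 1 to 4). A fit with a replicate block gave 1719 genes differing, 5 interferon-induced genes, and log2FC values of 5.57 for Lgals3, -0.44 for Lgals1 and 1.21 for Lgals3bp. In the shallowest library a count of 0 allows up to 1.49 CPM, so low genes such as Lgals2 cannot be called absent.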
